A study of Mus musculus with 6 samples.

Results

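Nuclear genes of the mitochondrial respiratory chain and ATP synthase were followed in blood stem and progenitor cells of mice with and without Med12. The members were all genes that 1-symbol probe sets assigned to the subunit families of complexes I to V and to the assembly factors that share their names. They numbered 94 of the 18193 genes measured, with 42 in complex I, 4 in complex II, 12 in complex III, 19 in complex IV and 17 in complex V. Each was read by its brightest probe set out of 186 for these genes. Ndufa4 and its paralog Ndufa4l2 were counted with complex IV, where the Ndufa4 protein resides, although their names place them in complex I. The members were matched by name alone, but they and the other lists were chosen with earlier results of these data known.

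The cells lacked lineage markers, carried c-Kit and Sca1, and were sorted from the bone marrow of B6/129 mice 4 days after pI:pC. This synthetic double-stranded RNA induces interferon, which switches on the Mx-Cre recombinase in blood cells and in other interferon-responsive tissues. One group (HSPC_Med12 KO) came from Med12Flox;MxCre mice and the other (HSPC_control) from control mice that had also received pI:pC, and the labels give neither the genotype of the controls nor the age of the animals. There were 6 microarrays, 3 per group, and the labels do not say whether each came from a separate animal, so the p-values reflect no more than the spread of these arrays, which may be technical. In such bulk samples fewer cells of a type and less RNA per cell cannot be told apart.

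The respiratory chain passes electrons from NADH and succinate to oxygen and pumps protons across the inner mitochondrial membrane, and ATP synthase uses the returning protons to make ATP. Complex I oxidises NADH, complex II oxidises succinate, complex III passes electrons from coenzyme Q to cytochrome c, complex IV reduces oxygen, and complex V is ATP synthase. Stem cells of the marrow are known for low reliance on this pathway, and their output of differentiating progeny for a greater reliance on it. Most subunits are encoded in the nucleus, and some subunits of complex IV exist as alternative isoforms made in particular tissues.

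The signal scale was set equal across arrays, but the median signal was 26.7 to 26.9 in controls but 16.5 to 21.3 in knockouts. Med12 itself, which encodes a subunit of the Mediator kinase module, had signals of 278.6, 837.4 and 441.6 in controls and 89.1, 100.4 and 86.4 in knockouts, and missed the threshold (log2 difference -2.17, limma's adjusted p = 0.0796). Whether its single probe set lies inside or outside the deleted part of the gene was not checked. Of the sort markers Kit was measured, at 805.2 to 1425.4 in controls but 514.8 to 617.5 in knockouts, and Ly6a (Sca1) was not analysed here.

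A single member passed the test, and it was lower. Cox6a2, the heart and skeletal muscle isoform of a complex IV subunit, fell to 44.9 ± 11.3 in knockouts, against 219 ± 29.9 in controls (mean signal ± SD, n = 3; limma's adjusted p = 0.0303). None of the other 93 members passed a threshold of 0.05 on p adjusted over all 45037 probe sets by limma, while 16 had an unadjusted p under 0.05 in the higher and 2 in the lower direction. Of all probe sets 0.762% passed, and of all genes 0.989%: over all genes 0.352% passed in the higher and 0.638% in the lower direction; 1 call in 94 is near that background. Most members had small positive differences. Of the 94, 72 were higher in knockouts (76.6%), against 42.2% of all genes, and the median log2 difference was 0.16, against -0.05. Centring each array on its median moved the median of all genes to 0.22 and that of the members to 0.43. It shifts every gene equally, so the gap of 0.21 between them could not change. That gap was 0.13 after quantile and 0.10 after cyclic loess normalization, where 73 and 65 members were higher.

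Separation between the groups was more common than calls. All 3 knockout signals lay above all 3 control signals for 30 members (31.9%), where 9.85% of all genes did so. They lay below for 5 members (5.32%), against 13.5% of all genes. At an unadjusted p under 0.05 the members numbered 16 higher (17.0%, against 7.83% of all genes) and 3 lower (3.19%, against 10.3%). The median half-width of the members' 95% interval was 0.39 on the log2 scale, which is wider than most of the differences. Most genes on the array are dim, and the members are not: 78 of the 94 have a mean log2 value above 8, as do 5099 of all genes. Among those brighter genes the share higher was 84.6% of members against 58.6% of all, and the share with all knockouts above all controls was 33.3% against 20.4%. The share with an unadjusted p under 0.05 in the higher direction was 15.4% of members against 16% of all. The cut at 8 does not match brightness closely, and the share differed by band. From a mean log2 of 8 to 10 it was 50% of 10 members against 17.5% of all genes. From 10 to 11 it was 21.2% of 33 members against 15.2%, and from 11 up 0% of 35 against 2.4%. Above 8, the share in the lower direction was 1.28% of members against 9.41% of all. These shares describe the list and were not tested as a set.

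**Figure D1:**
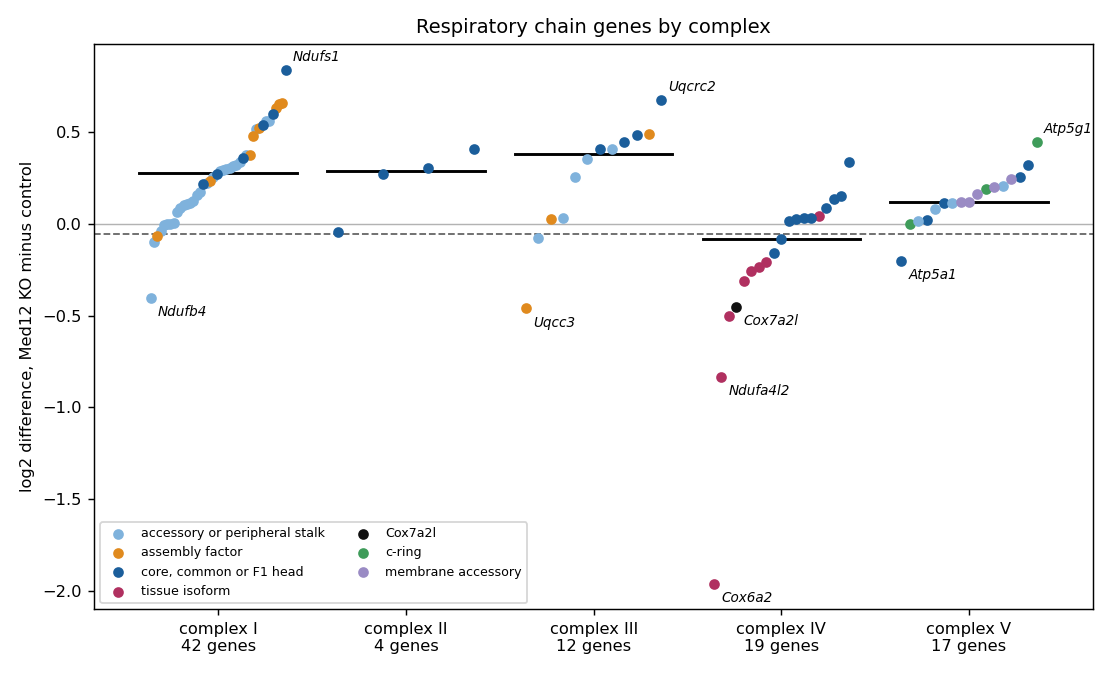
Log2 difference (Med12 KO minus control) of each of the 94 genes, in order of size within its complex. The thick lines are medians of the complex, from 0.38 in complex III to -0.08 in complex IV, and the dashed line is the median of all 18193 genes at -0.05; Cox6a2 lies apart at -1.96.

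Promoters are shown for 3 members to set beside the values that follow: Cox6a1, the ubiquitous counterpart of the called gene, Ndufaf4, an assembly factor whose groups did not overlap, and Cox7a2l, whose groups did not overlap in the lower direction. RefSeq sequence of GRCm38.p6 matched 77 of the 94 genes, with 82 windows that run from 250 bases before to 50 bases after a transcription start. Each window was searched on both strands for the palindromic word of nuclear respiratory factor NRF1 (the capitals in the Ndufaf4 sequence), CCGGAAG (the ETS family, which includes GABPA) and AAGATGGCG (YY1), and none of these words holds another. NRF1 words were in 6 windows (7.32%), ETS words in 19 (23.2%) and YY1 words in 7 (8.54%), against 0.971%, 8.86% and 1.40% of all 32851 windows. The members' windows were also richer in CG pairs, with a median of 19.5 per window against 7 over all. The 250 bases before the start are printed 5′ to 3′ in the gene's direction, with matched words in capitals.
Cox6a1, chr5:115348959-115349208, minus strand: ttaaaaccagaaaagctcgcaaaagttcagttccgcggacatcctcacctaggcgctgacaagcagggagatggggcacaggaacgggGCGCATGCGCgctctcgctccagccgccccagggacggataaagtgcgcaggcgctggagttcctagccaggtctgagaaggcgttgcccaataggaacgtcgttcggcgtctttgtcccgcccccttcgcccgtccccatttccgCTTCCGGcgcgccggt
Ndufaf4, chr4:24897833-24898082, plus strand: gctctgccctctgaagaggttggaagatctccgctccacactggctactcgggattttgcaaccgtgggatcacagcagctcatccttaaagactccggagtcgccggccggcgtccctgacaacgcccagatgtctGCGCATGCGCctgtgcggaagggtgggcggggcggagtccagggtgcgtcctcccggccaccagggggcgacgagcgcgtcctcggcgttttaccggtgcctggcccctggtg
Cox7a2l, chr17:83514334-83514583, minus strand: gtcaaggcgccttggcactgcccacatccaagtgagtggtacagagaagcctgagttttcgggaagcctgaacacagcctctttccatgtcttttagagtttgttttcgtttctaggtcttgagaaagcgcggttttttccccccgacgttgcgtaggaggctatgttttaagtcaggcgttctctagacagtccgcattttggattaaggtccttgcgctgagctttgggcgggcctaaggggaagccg
The Cox6a1 stretch held an NRF1 word 162 bases and an ETS word 16 bases before the start, and the Ndufaf4 stretch an NRF1 word 113 bases before it. The Cox7a2l stretch held none of the 3 words. The windows of members with higher knockout signals, such as Ndufa8, Ndufv2 and Uqcrfs1, could also hold none. Whether any word goes with the direction of a difference was not tested, and no window matched Cox6a2.

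Complex I holds the largest number of members, and its genes were higher in most cases without a call. Of 42 genes, 35 were higher (41 after median centring, 34 after loess). In 17 (40.5%) the groups did not overlap, each time with the knockouts above. Of all genes with a mean log2 value above 8, 20.4% did so. The median log2 difference of the complex was 0.28. Ndufs1, Ndufs3, Ndufs7, Ndufs8, Ndufv1 and Ndufv2 encode core subunits that carry out the electron transfer, and all 6 were higher under each scaling tried, with a median of 0.45. Ndufv2, an iron-sulfur subunit at the NADH end, had signals of 1126.4, 920.3 and 853.5 in controls and 1431.7, 1325.8 and 1628.4 in knockouts. The groups did not overlap, and the log2 difference was 0.59 (SE 0.16; limma's adjusted p = 0.164). All 3 of its probe sets had that sign. Ndufs1, the largest iron-sulfur subunit, had the highest log2 difference of the complex, 0.84, but with an SE of 0.33. Its signals were 334.0, 265.8 and 249.9 in controls and 476.7, 344.2 and 826.4 in knockouts, so knockout replicate 3 stood well above the other knockouts. The log2 differences were 0.53 for Ndufs8, 0.36 for Ndufs7, 0.27 for Ndufs3 and 0.22 for Ndufv1, and the groups overlapped in Ndufs3 and Ndufv1. A dimmer probe set of Ndufv1 was at 0.62 with no overlap. Ndufs8 was uneven over its 6 probe sets, with -0.04 and -0.52 on those of the opposite sign.

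The accessory subunits, which surround and stabilise that core, were more mixed. Of 28, 22 were higher, with a median of 0.16. In 8 (28.6%) the groups did not overlap, with the knockouts above. Among all genes that share was 21.1% at a mean log2 value of 8 to 10, 22.8% at 10 to 11 and 7.73% from 11 up. Ndufa8 and Ndufa9 had the lowest unadjusted p of complex I. Ndufa8, a subunit on the intermembrane space side, had signals of 897.2, 882.5 and 1071.5 in controls and 1359.0, 1482.6 and 1358.5 in knockouts (log2 0.56; SE 0.13; limma's adjusted p = 0.133). Ndufa9, a subunit near the coenzyme Q site, had signals of 776.6, 732.3 and 691.2 in controls and 983.9, 1138.8 and 1045.6 in knockouts (log2 0.52; SE 0.12; limma's adjusted p = 0.133). In both genes every knockout array exceeded every control array, and the mean signal was 1.47 and 1.44 times that of controls. Ndufab1, the mitochondrial acyl carrier protein, stood at 0.56 on its brightest probe set, and 1 of its 5 probe sets, a dim one, had the opposite sign. At the other end Ndufb11 (-0.10), Ndufa7 (-0.04) and Ndufa6 (-0.01) lay close to 0. The lowest, Ndufb4 at -0.40, was read by a dim probe set with mean signals of 26.8 and 13.8, and its bright probe sets carry several symbols.

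Assembly factors of complex I, which help build the enzyme and are not part of it when finished, had the highest median of its classes, 0.50. Of 8, 7 were higher. In 5 (62.5%) the groups did not overlap, with the knockouts above, and the same 5 had an unadjusted p under 0.05. All knockouts lay above all controls in 5.74% of all genes with a mean log2 value under 8 and in 20.4% above 8. An unadjusted p under 0.05 in the higher direction was found in 4.64% and 16% of them. Ndufaf3 had signals of 146.8, 189.0 and 182.8 in controls and 243.0, 280.7 and 318.8 in knockouts (log2 0.65; SE 0.16; limma's adjusted p = 0.142). Ndufaf5, which hydroxylates a core subunit, had signals of 227.3, 147.5 and 171.6 in controls and 282.2, 317.8 and 275.9 in knockouts, and its log2 difference was likewise 0.65. Ndufaf6 (0.63), Ndufaf1 (0.52) and Ndufaf4 (0.48) followed. Ndufaf4, whose promoter is printed above, had knockout signals of 649.9, 647.9 and 646.3, above control signals of 540.2, 397.6 and 454.4. Its second, dimmer probe set was at 0.05, and there the groups overlapped. Ndufaf8 was at -0.07, or above 0 after median centring. Their mean knockout signals ran from 108 for Ndufaf1 to 1767 for Ndufaf8.

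Complex II, which also belongs to the TCA cycle, had 4 members and no call. Sdha, the flavoprotein that oxidises succinate, had signals of 1935.2, 1454.1 and 1824.0 in controls and 2156.5, 1992.3 and 2255.2 in knockouts. Its groups did not overlap (log2 0.30; SE 0.15; limma's adjusted p = 0.414). Its next brightest probe set was at 0.23, and there they did overlap. Sdhb, the iron-sulfur subunit, had signals of 867.8, 916.2 and 1233.7 in controls and 1215.3, 1222.3 and 1168.6 in knockouts (log2 0.27; limma's adjusted p = 0.505). Sdhc, a membrane anchor, had signals of 1405.2, 815.2 and 920.2 in controls and 1245.9, 1196.0 and 1666.2 in knockouts (log2 0.41; limma's adjusted p = 0.508). In both the groups overlapped: control replicate 3 was the highest array for Sdhb, and control replicate 1 exceeded knockout replicates 1 and 2 for Sdhc. Sdhd, the other anchor, was at -0.05 on its brightest probe set and at 0.43 on the second, with a sign that also turned after median centring.

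Complex III had the highest median of the complexes, 0.38. Of 12 genes, 10 were higher (11 after median centring, 9 after loess). In 7 (58.3%) the groups did not overlap, with the knockouts above, against 20.4% of all genes with a mean log2 value above 8. At an unadjusted p under 0.05 there were 6, all higher (50%, against 16% of those brighter genes). All 4 genes of its core class were among these 6. Uqcrc2, a large structural core protein, had signals of 869.3, 814.5 and 872.9 in controls and 1333.0, 1165.0 and 1647.9 in knockouts (log2 0.67; SE 0.16; limma's adjusted p = 0.134). Its other probe set gave 0.15. Cyc1, cytochrome c1, which hands electrons to cytochrome c, had signals of 1229.0, 924.3 and 1121.8 in controls and 1505.6, 1494.5 and 1446.8 in knockouts (log2 0.45; SE 0.14; limma's adjusted p = 0.224). Uqcrfs1, the Rieske iron-sulfur protein, had signals of 516.1, 528.7 and 586.6 in controls and 698.3, 773.4 and 704.4 in knockouts (log2 0.41; SE 0.12; limma's adjusted p = 0.196). Uqcrc1, the other core protein, was at 0.48 (SE 0.17). In each of these 4 genes all knockout arrays exceeded all control arrays, and their signs held under each setting tried. The accessory subunits Uqcr11 (0.41) and Uqcr10 (0.35) also had groups that did not overlap. Uqcrb was at 0.03 on its brightest probe set and at 0.47, with no overlap, on the other, and Uqcrh was at -0.08 and -0.01 on its probe sets. The assembly factors were split, with Uqcc2 at 0.49 on its brightest probe set and 0.04 on the other, Uqcc1 at 0.02 and Uqcc3 at -0.46.

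**Figure D2:**
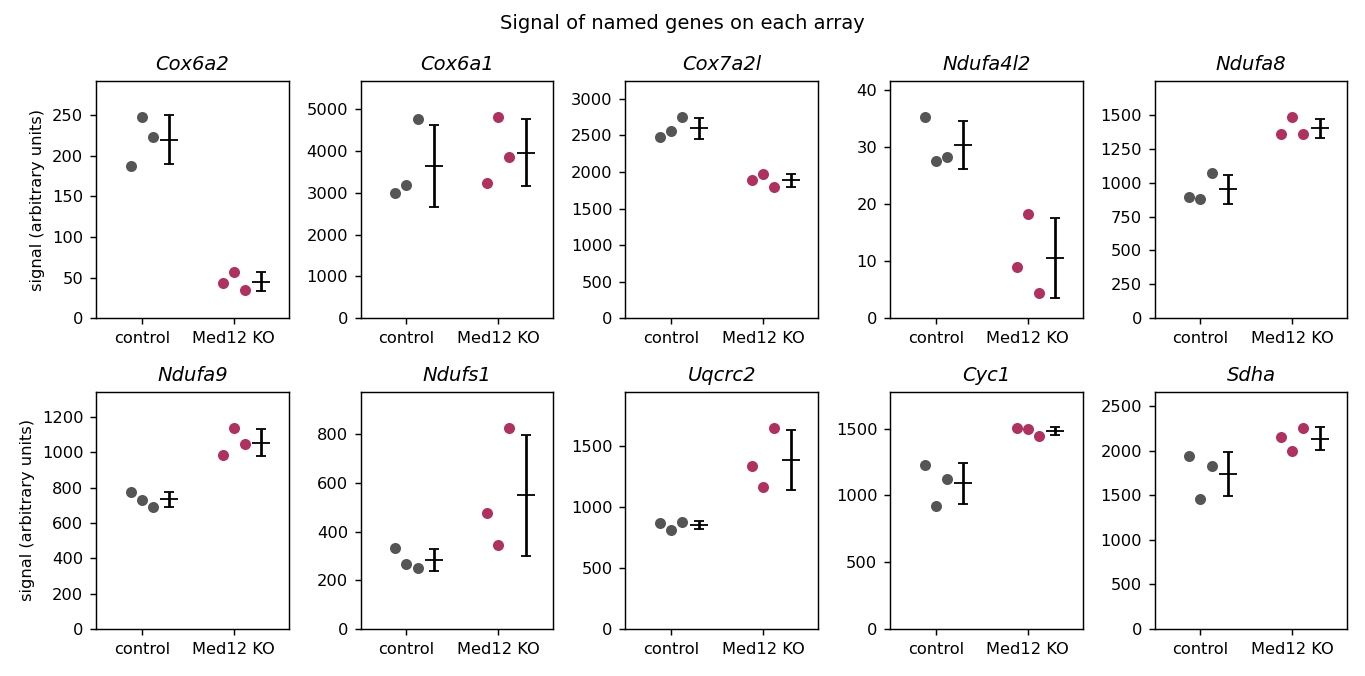
Deposited signal (arbitrary units, axes from 0) of 10 members on the 3 control and 3 Med12 KO arrays; points are arrays and the dash with whiskers is the mean ± SD. The groups do not overlap in any panel but that of Cox6a1, and Cox6a2, Cox7a2l and Ndufa4l2 are the ones with lower knockout signals.

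Complex IV had as many members near or below 0 as above. Its median was -0.08, but it turned to 0.19 after median centring, to 0.0035 after quantile normalization to 0.01 without control replicate 3 and to 0.03 without knockout replicate 1, without the dimmer 50% of probe sets or among the brightest 25%. The 10 subunits made in most tissues had a median of 0.03 (-0.01 after loess), and 1 of them, Cox8a, had groups that did not overlap (log2 0.33; limma's adjusted p = 0.376). Cox4i1, a large regulatory subunit, had signals of 2066.8, 2001.5 and 2158.2 in controls and 2013.7, 2277.4 and 2010.7 in knockouts. The groups were intermixed, and the 95% interval of its log2 difference ran from -0.27 to 0.31. Cox5a (-0.08), Cox5b (0.02) and Cox6b1 (0.03) were also near 0, with signs that turned after another scaling or without 1 array, and Cox6c was at 0.03. Cox7c was read by a dim probe set, at a mean of 78.5 in controls and 64.5 in knockouts.

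The tissue isoforms of complex IV held the single call. Cox6a2 had signals of 187.7, 247.1 and 223.3 in controls and 43.1, 57.0 and 34.6 in knockouts. Every knockout array was far below every control array, and the log2 difference was -1.96 (SE 0.19; 95% interval -2.41 to -1.50). Its second, dimmer probe set ranged from 18.4 to 28.2 in controls and up to 15.1 in knockouts, a log2 difference of -0.68 that did not pass (limma's adjusted p = 0.254). The call was lost with any 1 array left out (limma's adjusted p from 0.0779 to 0.104) and with 1 in place of 16 added before log2 (0.0612). Its ubiquitous counterpart Cox6a1 had signals of 2980.5, 3173.8 and 4755.0 in controls and 3227.2, 4803.4 and 3846.0 in knockouts. The groups overlapped, and the log2 difference was 0.13 with a 95% interval from -0.46 to 0.73.

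Of the other 7 tissue isoforms, 6 were lower on this scale, most of them at dim signals; after median centring 3 of the 6 remained lower. Ndufa4l2, a paralog of Ndufa4 that responds to low oxygen, had signals of 35.2, 27.5 and 28.3 in controls and 8.9, 18.2 and 4.4 in knockouts (log2 -0.84; SE 0.22; limma's adjusted p = 0.153). Its groups did not overlap, and the log2 difference ran from -1.63 to -0.34 over the alternative settings. Cox7a1, a muscle isoform, lay between 17.7 and 51.6 in controls and between 14.0 and 17.6 in knockouts. Cox8b, Cox8c and Cox7b2 had mean signals of 17.9, 10.8 and 3.63 in controls, near the bottom of the scale. Cox4i2, an isoform known from lung, lay between 30.1 and 68.8 in controls and between 21.4 and 56.5 in knockouts, which overlapped. Cox6b2, known from testis, was not dim: it lay between 589.5 and 724.3 in controls and between 533.9 and 886.0 in knockouts, with no separation (log2 0.04).

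Cox7a2l, which links complexes III and IV into supercomplexes, stood apart from the other bright members. Its signals were 2480.9, 2557.5 and 2749.8 in controls and 1895.7, 1972.9 and 1794.5 in knockouts. Every knockout array was below every control array, for a log2 difference of -0.46 (SE 0.12; limma's adjusted p = 0.148). Its 3 probe sets were at -0.46, -0.41 and -0.60, and the sign held under all 19 alternative settings. The other members with an unadjusted p under 0.05 in the lower direction, Cox6a2 and Ndufa4l2, were dimmer.

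Complex V members were higher by small amounts with no call, 15 of 17 (17 after median centring, 13 after loess), and the median was 0.12. On the brightest probe sets the groups did not overlap in 4 (23.5%), all higher. That share was 20.4% over all genes with a mean log2 value above 8. By band it was 22.8% from 10 to 11 and 7.73% from 11 up, where most members of the complex lie. No member had an unadjusted p under 0.05 on its brightest probe set, but other probe sets of Atp5k and Atp5pb did. In the catalytic F1 head, Atp5d, the delta subunit of its central stalk, had signals of 2263.0, 2359.7 and 2225.2 in controls and 2480.5, 2977.1 and 3124.8 in knockouts (log2 0.32; SE 0.13; limma's adjusted p = 0.337). Atp5b, the catalytic beta subunit, was at 0.26, and its groups did not overlap either. Atp5a1, the alpha subunit, was at -0.20 on its brightest probe set and at 0.37 on another, and its sign turned after median centring. The proton-carrying c-ring is encoded by a set of 3 genes with the same mature protein. Atp5g1 had signals of 1143.9, 1250.3 and 1821.4 in controls and 1661.2, 2181.0 and 1820.0 in knockouts, the highest log2 difference of the complex at 0.44 (SE 0.22; limma's adjusted p = 0.405), with control replicate 3 inside the knockout range. Atp5g3 was at 0.19 and Atp5g2 at -0.0012. Atp5k, the e subunit that helps pair the complexes, had signals of 2531.5, 2219.6 and 2412.1 in controls and 2798.6, 3057.5 and 2629.0 in knockouts (log2 0.24; limma's adjusted p = 0.426). Its other probe sets were at 0.54 and 0.41, each with no overlap and an unadjusted p of 0.0194 and 0.0239 by limma. Peripheral stalk genes ranged from 0.01 for Atp5h to 0.20 for Atp5pb. The second probe set of Atp5pb had signals of 1003.1, 971.8 and 1041.2 in controls and 1293.8, 1568.4 and 1443.5 in knockouts, with no overlap (log2 0.50; limma's adjusted p = 0.145).

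Some arrays were high for many members at once. Knockout replicate 2 gave the highest knockout signal for 63 of the 94 members (67.0%), against 37.3% of all genes, and control replicate 3 the highest control signal for 54 (57.4%), against 35.9%. As medians of the deviation from the control mean, complex III was at -0.06 to 0.11 on control arrays and 0.22 to 0.45 on knockout arrays, with no overlap. Complex I was at -0.07 to 0.09 and 0.12 to 0.33, also apart. Complex II was at -0.22 to 0.19 and 0.22 to 0.31, where control replicate 3 came close to the knockouts. Complexes IV and V overlapped, at -0.09 to 0.08 and -0.12 to 0.09 for complex IV and at -0.07 to 0.16 and -0.0044 to 0.29 for complex V.

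**Figure D3:**
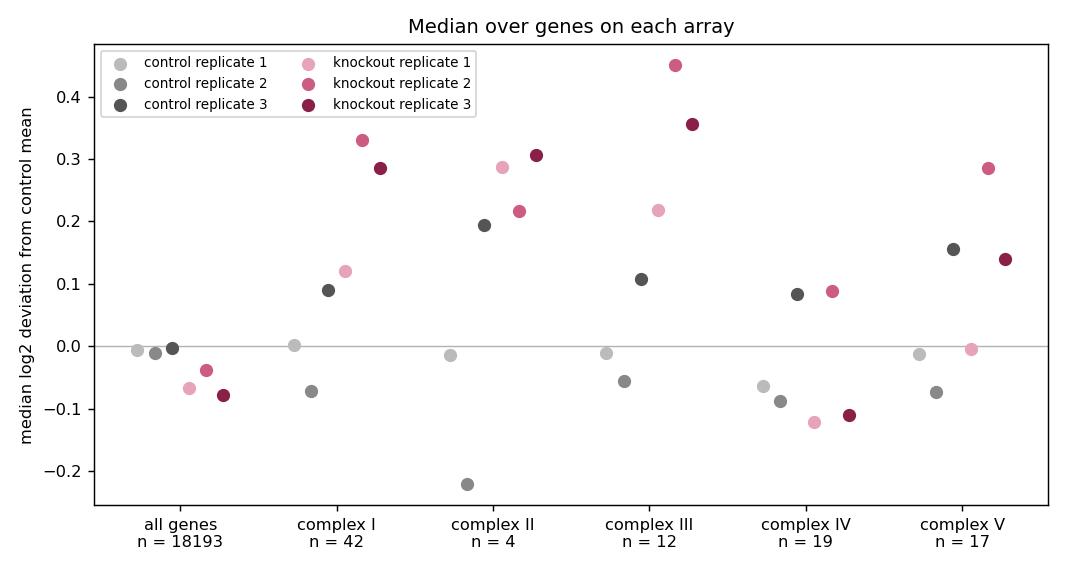
Median over genes, on each of the 6 arrays, of the log2 deviation from the gene's control mean, for all genes and for each complex. Control and knockout arrays are apart in complexes I, II and III and intermixed in complexes IV and V, where knockout replicate 2 is the highest array.

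Brightness of the probe set moved with the difference. Members with a mean log2 value under 8 (16 genes) had a median of -0.19, those from 8 to 10 (10 genes) 0.32, those from 10 to 11 (33 genes) 0.29 and those from 11 (35 genes) 0.11. Over all genes the same bands gave -0.09, 0.11, 0.11 and -0.04. The members' median was above that of all genes in the 3 brighter bands and below it in the dimmest.

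**Figure D4:**
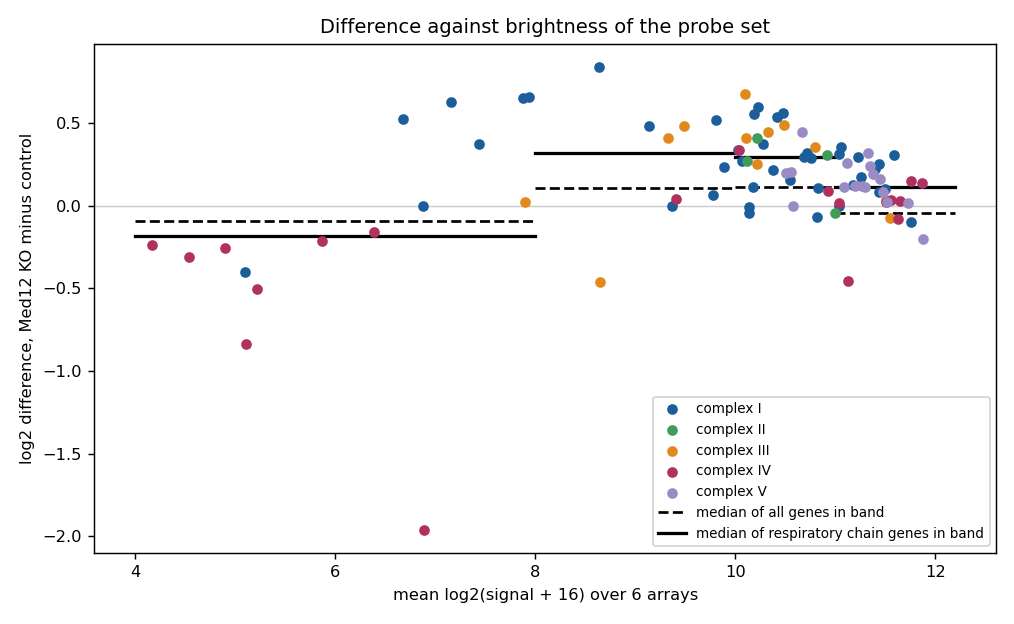
Log2 difference of each member against its mean log2(signal + 16) over the 6 arrays, coloured by complex; solid and dashed lines are the medians of members and of all genes in 4 bands. The solid line lies above the dashed line in the 3 bands from 8 upward, at 0.32, 0.29 and 0.11 against 0.11, 0.11 and -0.04.

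Lists of other mitochondrial genes were also mostly higher where they feed, build or supply the chain, and limma called no gene in any of them. Of 19 measured genes of the TCA cycle and pyruvate dehydrogenase, which feed the chain, 15 were higher and 8 had an unadjusted p under 0.05, all higher (median 0.47). Sucla2, a succinyl-CoA synthetase subunit, had signals of 453.9, 446.8 and 401.8 in controls and 754.7, 769.8 and 681.7 in knockouts (log2 0.74; SE 0.12; limma's adjusted p = 0.0721). Idh3a, of the NAD-linked isocitrate dehydrogenase, was at 0.99 (limma's adjusted p = 0.0971) and Dlst, of the 2-oxoglutarate dehydrogenase complex, at 0.67. Sucla2 passed after median centring and with 32 or 64 added before log2, and Idh3a in a fit of the brightest 25% of probe sets alone. Of 24 protein import genes 20 were higher and 9 had an unadjusted p under 0.05 (median 0.36), with the lowest p for the translocase genes Timm23 (0.70), Tomm40 (0.85) and Timm17a (0.78). Of 40 assembly factors outside the naming rule 33 were higher and 8 had an unadjusted p under 0.05 (median 0.32), with the lowest p for Sdhaf4 (0.65), Higd1a (0.74) and Tmem126a (0.62). Of 20 genes of cytochrome c, coenzyme Q synthesis and the enzymes that pass electrons to coenzyme Q from other fuels, 16 were higher and 5 had an unadjusted p under 0.05 (median 0.24), among them Cycs, cytochrome c itself, with 2076.1, 1919.3 and 2297.3 in controls and 2424.3, 2941.8 and 3678.5 in knockouts, and Hccs (0.67), which attaches haem to it, and Gpd2 (1.10), the glycerol-3-phosphate dehydrogenase of the inner membrane. In the order given, the shares with an unadjusted p under 0.05 in the higher direction were 42.1%, 37.5%, 20% and 25%, against 7.83% of all genes, 16% of those with a mean log2 value above 8 and 17.5% of those from 8 to 10; the share of the assembly factors is close to the last.

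Regulators and carriers had medians nearer to 0. Of 24 regulators of mitochondrial transcription and biogenesis 16 were higher, with a median of 0.10. Esrra, a nuclear receptor that activates respiratory genes, was lower at 50.6, 53.8 and 33.1 against 73.0, 123.4 and 111.8 in controls (log2 -0.93; limma's adjusted p = 0.145), Myc was at -0.45 and Mterf4, a mitochondrial ribosome assembly protein, at 0.67. Of 9 ADP, ATP and phosphate carriers, porins and uncoupling proteins 4 were higher (median -0.02), with Slc25a5, an ADP/ATP carrier, at 0.16, Vdac2, a porin of the outer membrane, at 0.20 and Ucp1 at -0.29. Of the genes in mitochondrial DNA, ND5, a complex I subunit, was measured and had signals of 2496.9, 3823.5 and 4402.4 in controls and 2359.0, 2651.6 and 2561.0 in knockouts (log2 -0.46; limma's adjusted p = 0.410).

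Marker genes of blood cell types also differed between the groups. Whether the cell make-up of the sorted fraction or the RNA per cell changed cannot be told apart. Of 13 measured erythroid genes 11 were higher, with a summed signal of 4628 to 5457 in controls but 9854 to 14578 in knockouts. Slc4a1 was lower on its brightest probe set, at 23.2, 185.8 and 69.3 in controls and 11.8, 13.9 and 13.2 in knockouts. Nfe2 was also lower (log2 -0.25), with groups that overlapped. All 10 granulocyte-monocyte progenitor genes were lower, at 9160 to 17169 and 1000 to 1982, as were all 9 early lymphoid genes, at 4454 to 6829 and 588 to 1600. All 9 megakaryocyte genes were higher, at 3733 to 5580 and 6467 to 8390. Of 6 mast cell and basophil genes 5 were higher, and all 6 summed to 2698 to 3025 and 3778 to 3957. Mcpt8 was the lower 1 (log2 -1.69), with groups that overlapped. The 10 plasmacytoid dendritic cell genes, a list added after the data were seen because Cox6a2 is also known from those cells, summed to 1950 to 2612 in controls but 885 to 1187 in knockouts, with 8 lower. Tcf4 and Irf8 carry most of that sum, and Irf8 and Ccr9 also stand in the granulocyte-monocyte and early lymphoid lists, so the lists are not separate readings. The defining gene Siglech was at 17.1, 64.1 and 9.3 in controls and 3.0, 9.0 and 3.8 in knockouts. The adult alpha-globin gene Hba-a1 was at or under 16 on all 6 arrays on its only 1-symbol probe set. Any probe set with several symbols was not read for it. Of 6 lineage genes measured, Ptprc, which encodes CD45 and is made by all white blood cells and their progenitors, was at 1269.2, 1230.8 and 1677.9 in controls and 1014.2, 888.4 and 916.8 in knockouts. The other 5, Cd3e, Cd4, Cd8a, Ms4a1 and Itgam, were dim, with no signal above 114.6 on any array. The part of these shifts in the respiratory chain values was not tested.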

How the data were processed

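Gene expression was measured on 6 microarrays, 3 of control and 3 of Med12 knockout cells, from 5 ng of total RNA each, per the labels' protocols. The authors deposited 1 intensity per probe set. The submitters' processing notes name RMA, but the deposited intensities are linear, contain zeros and have a mean of 150.0 on every array after 2% is left out at each end, so the method that made them is not given in the sources used here. They were taken as log2(signal + 16), which understates changes of dim genes. Of 45101 probe sets, 64 controls were left out. GEO's platform annotation gave 34945 of the rest 1 symbol, 932 several and 9160 none. Knockouts were tested against controls in limma 3.58.1 (lmFit, then eBayes, two-sided; R 4.3.3), with Benjamini-Hochberg adjustment over 45037 probe sets and a threshold of 0.05. For a gene with several probe sets the one with the highest mean was taken, and 21 of the 53 members with several probe sets had probe sets of differing sign. Intervals are moderated 95% intervals. All 6 value columns were used (0 left out). The number of arrays limits the precision.

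The members and lists were chosen with earlier results of these data known. Members described one by one were those past the threshold, the 3 of lowest unadjusted p and the lowest and highest difference in each complex, and core subunits and isoform sets fixed by name; of each other list the 3 of lowest unadjusted p. Names outside that rule were chosen after their values were seen. Of the chosen probe sets 24 end in _s_at or _x_at, which can read near-identical genes. Alternatives were other offsets, scalings, filters, priors, array weights, a replicate block, averaged probe sets, a looser threshold and leaving out each array. The fit was tested on simulated data.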

Additional observations from a re-analysis of the deposited data

How the results depend on the processing

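Cox6a2 was called in 10 of 18 alternatives and lower in all 18 (adjusted p from 0.00756 to 0.151). The count of members called lower was 0 with 1 added before log2, with a replicate block, among the brightest 25% of probe sets (where Cox6a2 was not tested) and 0 without any 1 array; members called higher numbered 0 in all alternatives. Deviations of same-numbered arrays correlated at 0.00193 to 0.0193, and not every array correlated best with its own number. Correlations this weak cannot tell whether the replicate numbers pair the arrays, and the labels do not say. With the replicate block limma called 0 of all probe sets (6752 had an unadjusted p under 0.05), and Cox6a2 had an adjusted p of 0.151. Of all probe sets, 343 in the reported fit, 42 were called with 1 added before log2, 693 after median centring, 715 and 756 without the dimmest 25% and dimmer 50%, 522 among the brightest 25%, 1159 at an adjusted p under 0.10, and 0 to 10 without 1 array (0 without knockout replicate 1 or 3, where 6219 and 5340 had an unadjusted p under 0.05). Median centring moved the medians to 0.43 over all members and to 0.55, 0.56, 0.65, 0.19 and 0.39 in complexes I to V. The TCA cycle list had 1 call among the brightest 25%, after median centring and with 32 or 64 added, and 2 at 0.10. Complex IV also changed sign, to 0.03, without the dimmer 50%, among the brightest 25% and without knockout replicate 1, and to 0.01 without control replicate 3. Of the 43 named members 30 kept their sign in every setting. The cause of these shifts was not tested. Dim isoforms and the number of arrays limit what can be read.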

Other observations

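Probe sets that carry several symbols were outside the comparison, and 10 of them held a respiratory chain symbol. The probe set shared by Ndufa11 and Ndufa11b, whose product is a membrane-arm subunit of complex I, had signals of 940, 714.4 and 1128.3 in controls and 1616.6, 1562.2 and 1154.6 in knockouts (log2 0.64; limma's adjusted p = 0.255). The probe set shared by Ndufs6 and Ndufs6b had signals of 1696.2, 1313.8 and 1218.9 in controls and 1739.2, 1946.9 and 1715.8 in knockouts (log2 0.36; limma's adjusted p = 0.366). In both the groups did not overlap. The bright probe sets shared by Ndufb4, Ndufb4b and Ndufb4c were at 0.14 and 0.43, against -0.40 on the dim probe set that carries the symbol Ndufb4 alone, so the sign of that gene depends on which probe set is read.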
